A study of Homo sapiens with 6 samples.

Results

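The cadherin family was compared between H69M and H69, a pair of human small cell lung cancer lines, over its classical cadherins, protocadherins and desmosomal cadherins. Members were all genes whose array symbol is CDH, DSG or DSC plus a number or begins with PCDH, read from probe sets with 1 gene symbol. These were 70 genes of 18404 measured. Of the members, 21 were CDH genes, 7 desmosomal, 11 non-clustered protocadherins and 31 clustered protocadherins. Total RNA of each line was hybridised to 3 whole-transcript arrays, and values are log2 probe set values. H69 is an established neuroendocrine line that grows as floating aggregates. How H69M was obtained is not stated in the labels, which give no treatment for either line. They also do not say whether the 3 arrays of each line come from cultures grown apart, so p-values cover array-to-array spread that may be technical only.

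Cadherins are calcium-dependent adhesion proteins that bind the same or a related cadherin on the next cell. Classical cadherins hold adherens junctions and are tied to actin through catenins. Desmogleins and desmocollins do the same for desmosomes, where plakoglobin, plakophilins and desmoplakin join them to intermediate filaments. Protocadherins act mostly in the nervous system, and those of the alpha, beta and gamma clusters give single neurons an adhesive identity. A cadherin switch is the replacement of E-cadherin by another cadherin when epithelial cells become mesenchymal.

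Array medians lay between 6.43 and 6.48, and across genes 2 arrays of the same line correlated at 0.995 to 0.998, against 0.938 to 0.950 for arrays of different lines. The neuroendocrine marker list had 0 higher and 7 lower of 8 measured genes, with array means of 8.88 to 9.17 in H69M and 9.78 to 9.83 in H69, so the list's mean lay above the 25th percentile of all genes (5.58) on every array. Of 8 fibroblast markers 7 rose, with array means of 8.15 to 8.50 in H69M and 5.19 to 5.26 in H69. Of 7 leukocyte markers 0 rose and 3 fell, and 5 lay below the 25th percentile in both lines. By the same test, 21.0% of all genes were higher in H69M and 23.2% lower. In RNA of whole cultures, a smaller share of cells that express a gene and less RNA per cell cannot be told apart.

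H69M differed from H69 in 48 of the 70 members, 28 higher and 20 lower, at a Benjamini-Hochberg adjusted p below 0.05 in limma's fit over all genes. That is 68.6% of members, where 44.2% of all genes were called. By direction, 40.0% of members were higher, against 21.0% of all genes, and 28.6% were lower, against 23.2%. At least 2-fold differences were found for 15 higher members (21.4%, against 5.56% of all genes) and 5 lower members (7.14%, against 2.72%). The median absolute log2 fold change was 0.60 over the members and 0.19 over all genes. The lines' arrays did not overlap for 28 higher and 21 lower members, where 25.8% and 30.0% of all genes were separated in those directions. Of the 70 members, 21 had a mean of no less than the all-gene median (7.16) and 21 lay below the 25th percentile, of which 6 were called. A dim probe set has no detection call here, and its fold change can understate a difference.

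**Figure D1:**
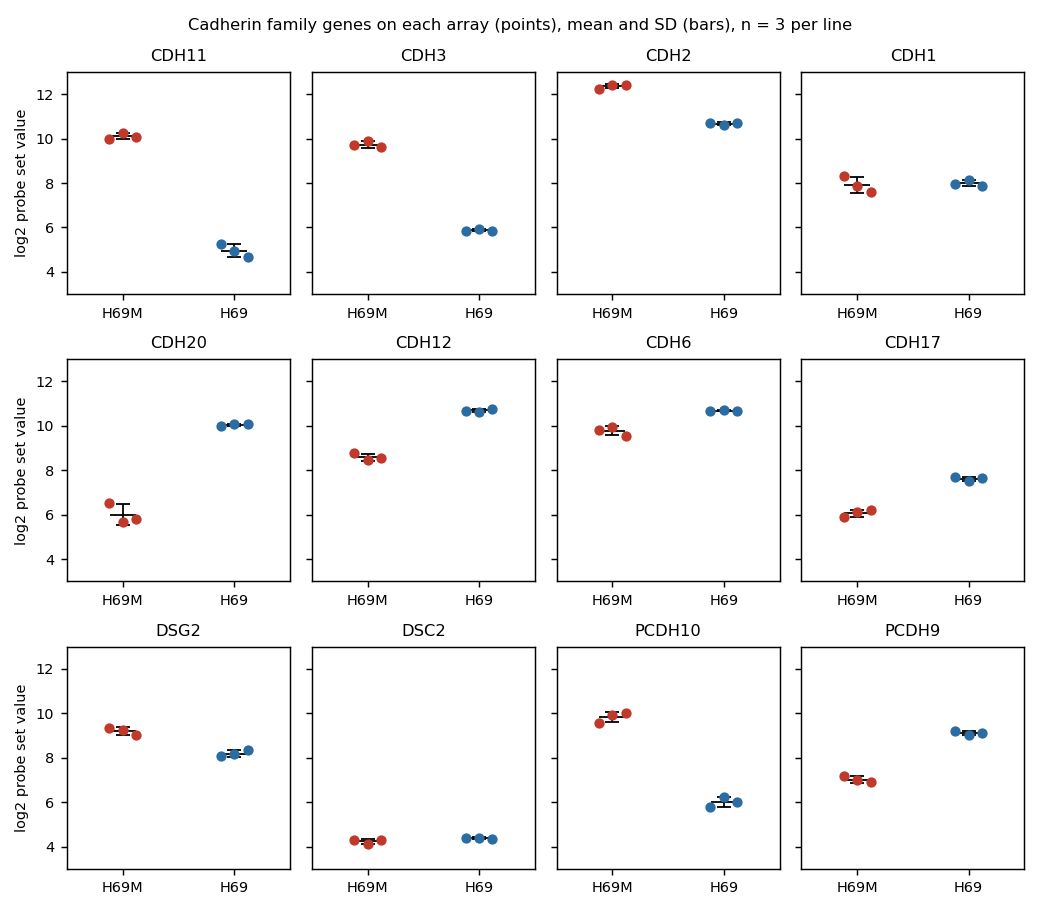
Log2 probe set values (vertical axis) of 12 cadherin family genes on each array, H69M in red left of H69 in blue, with the mean and SD as black bars (n = 3 arrays per line). CDH11, CDH3, CDH2, DSG2 and PCDH10 are higher on every H69M array than on every H69 array, CDH20, CDH12, CDH6, CDH17 and PCDH9 are lower, DSC2 is slightly lower on every H69M array without passing the test, and the CDH1 arrays overlap.

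Among the type I classical cadherins, N-cadherin and P-cadherin rose and E-cadherin did not pass the test. N-cadherin, P-cadherin and E-cadherin share a conserved histidine-alanine-valine site in the first extracellular domain and give strong adhesion. CDH3, P-cadherin of basal epithelial cells (probe set 7996819), read 9.70, 9.89 and 9.61 on the H69M arrays, against 5.84, 5.94 and 5.85 on the H69 arrays. All 3 H69M arrays stood far above all H69 arrays. Its mean was 9.73 ± 0.15 in H69M and 5.88 ± 0.052 in H69 (SD, n = 3 each), a 14.5-fold difference with a limma adjusted p = 6.49e-08.

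CDH2, N-cadherin of neural and mesenchymal cells, read 12.25, 12.40 and 12.43 in H69M, against 10.71, 10.61 and 10.69 in H69. It was already bright in H69, and the H69M arrays lay above it without overlap, at 3.22-fold (limma adjusted p = 1.11e-06). CDH1, E-cadherin of epithelial junctions, read 8.30, 7.89 and 7.59 in H69M, against 7.96, 8.15 and 7.87 in H69. The H69M arrays spread across the whole H69 range. The log2 fold change was -0.070, with a 95% interval of -0.46 to 0.32, so a fall of more than 0.46 in log2 lay outside the interval. Leaving out H69M replicate 1, the array with the highest CDH1 value, gave -0.26, and leaving out H69M replicate 3 gave 0.099. CDH15, M-cadherin of muscle, had a log2 fold change of 0.0037 and did not pass.

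CDH3 and CDH1 are next to each other on chromosome 16, with no other measured gene between them, and of these neighbours only CDH3 was called. Of the 12 nearest measured genes outside the family, 6 on each side, 4 were higher and 2 lower in H69M, with log2 fold changes of -1.03 to 1.49. None of these 12 reached the 3.85 of CDH3. Of all genes, 21.0% were higher and 23.2% lower.

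Type II classical cadherins, which in the brain mark nuclei and circuits, mostly fell, with a single very large rise. Of 13 measured genes, 3 rose, 8 fell and 2 did not pass, with a median log2 fold change of -0.52 (all genes -0.041). Shares over all genes were 21.0% higher and 23.2% lower, so the share that rose was close to that of all genes. CDH11, the cadherin of osteoblasts and other mesenchymal cells (probe set 8001800), read 9.99, 10.25 and 10.09 in H69M, against 5.25, 4.96 and 4.66 in H69. The H69 values lay near the dim end of the array, below the 25th percentile of all genes. The log2 fold change was 5.15 ± 0.14 (SE), which is 35.6-fold (limma adjusted p = 1.93e-07), and it lay between 5.01 and 5.30 with any 1 array left out. The fibroblast marker list rose on the same arrays, and its part in the CDH11 rise was not tested.

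CDH20, a type II cadherin of the nervous system (probe set 8021484), read 6.55, 5.69 and 5.80 in H69M, against 10.00, 10.08 and 10.07 in H69. H69M replicate 1 was the highest of its line and still lay far below H69. H69M was 16.4-fold lower (log2 fold change -4.04 ± 0.20, SE; limma adjusted p = 2.87e-06), and the change was -4.30 without H69M replicate 1. CDH12, known as a brain cadherin, read 8.77, 8.46 and 8.54 in H69M, against 10.69, 10.62 and 10.78 in H69, with no overlap and a 4.31-fold lower level in H69M (limma adjusted p = 1.28e-06). CDH6, K-cadherin of fetal kidney, read 9.83, 9.95 and 9.57 in H69M, against 10.67, 10.70 and 10.65 in H69, a log2 fold change of -0.89 that left it bright in both lines.

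Among the other type II genes, falls were called for CDH22 (-0.83), a brain cadherin, CDH7 (-0.58), CDH24 (-0.56), CDH19 (-0.52), known from Schwann cell precursors, and CDH8 (-0.25). CDH19 was dim in both lines, at 3.47 in H69M and 3.98 in H69. CDH18 rose by 0.94 ± 0.15 (log2, SE) and CDH10 by 0.30 ± 0.064. CDH5, VE-cadherin of endothelial junctions, read 5.25, 5.13 and 5.25 in H69M, against 5.21, 5.20 and 5.25 in H69, and CDH9 lay at 3.28 in H69M and 3.44 in H69. Neither passed, and both sat below the 25th percentile in both lines. Of 8 endothelial markers, 3 rose (CD34, EMCN and KDR, by 0.53, 0.44 and 0.39 in log2) and CLDN5 fell by 0.53. Their array means were 5.26 to 5.37 in H69M and 5.17 to 5.22 in H69. Of the 8, 5 lay below the 25th percentile in both lines. The all-gene shares were 21.0% higher and 23.2% lower.

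The measured genes beside these cadherins differed from gene to gene in size and direction, and around each cadherin given here more were lower than higher. Over all genes, 21.0% were higher and 23.2% lower. CDH8 and CDH11 are neighbours on chromosome 16, with log2 fold changes of -0.25 and 5.15. The 12 nearest measured genes outside the family around CDH11 ran from -0.42 to 1.39, with 2 higher and 5 lower. Around CDH20 on chromosome 18, 2 of 12 such genes were higher and 5 lower, from -1.49 to 0.59. Around CDH12 on chromosome 5, 2 were higher and 6 lower, from -1.83 to 0.94, where CDH12 itself stood at -2.11. Around CDH2 on chromosome 18, 1 of 12 was higher and 6 lower, from -3.88 to 2.25, past the 1.69 of CDH2 in both directions. In total 11 members lie on chromosome 18, the desmosomal genes, CDH2, CDH7, CDH19 and CDH20, of which 2 rose, 3 fell and 6 did not pass.

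Of the 4 measured CDH genes outside the classical types, 0 rose and 2 fell, where 21.0% of all genes were higher and 23.2% lower. CDH17, liver-intestine cadherin, which lacks a catenin-binding tail, read 5.90, 6.11 and 6.20 in H69M, against 7.69, 7.53 and 7.66 in H69. All H69M arrays lay below all H69 arrays, at a 2.94-fold lower level (limma adjusted p = 6.08e-06). CDH23, which with PCDH15 forms the tip links of inner ear hair cells, fell by 0.86 ± 0.083 (log2, SE). PCDH15 went the other way and rose by 0.94 ± 0.11. CDH16, a kidney cadherin, and CDH26 did not pass, at -0.083 and -0.11.

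**Figure D2:**
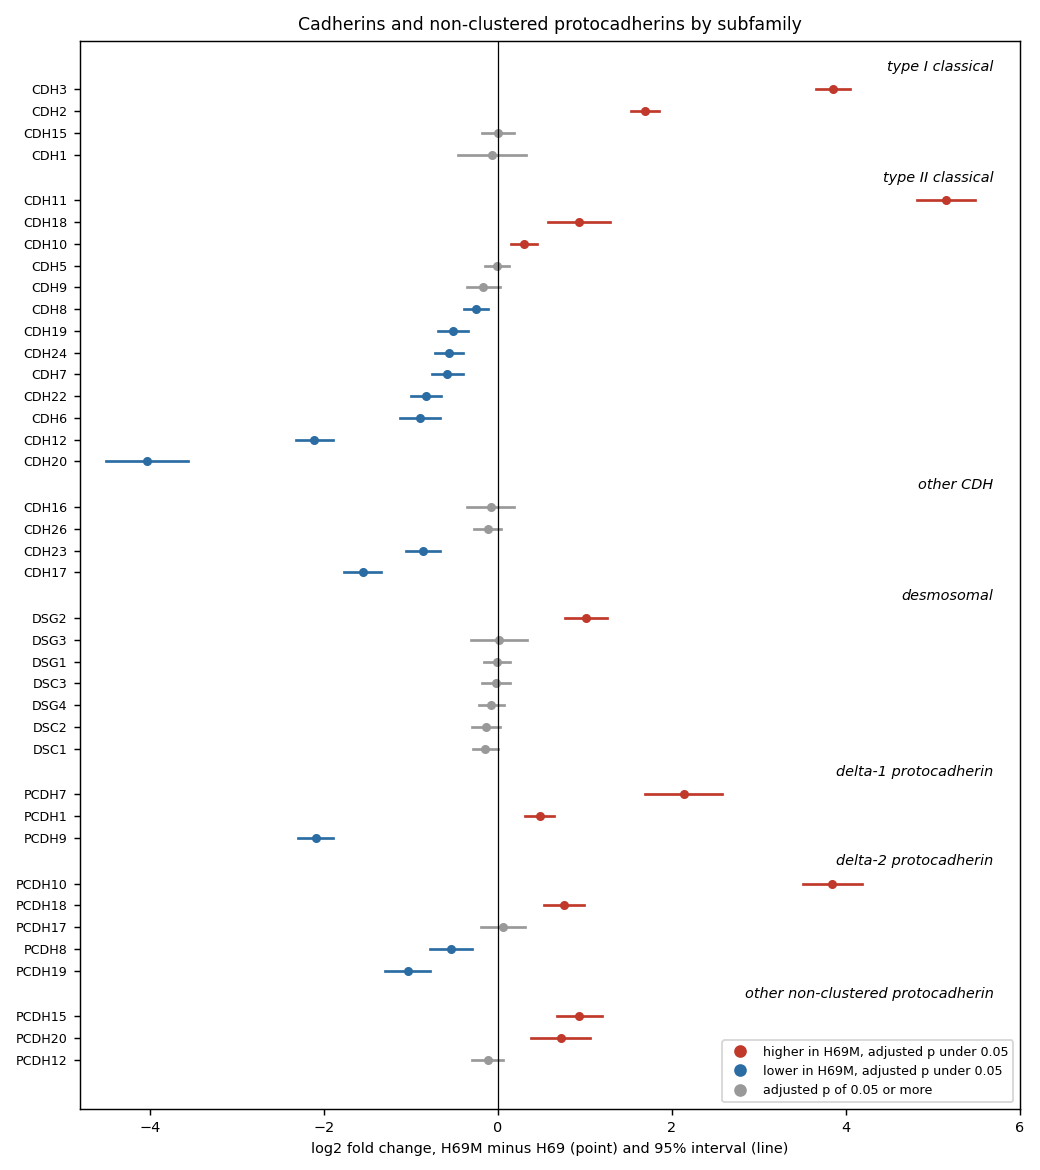
Log2 fold change of H69M minus H69 (points) with limma's 95% interval (lines) for the 39 members outside the protocadherin clusters, grouped by subfamily. Red marks members higher in H69M and blue those lower at an adjusted p below 0.05, and grey marks the others. CDH11 at 5.15 and CDH20 at -4.04 are the ends of the range.

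Of the 7 desmosomal cadherins only DSG2 was called, where 44.2% of all genes were called. DSG2, the desmoglein that most tissues with desmosomes express, read 9.32, 9.26 and 9.02 in H69M, against 8.07, 8.14 and 8.35 in H69. The arrays did not overlap, and the level was 2.02-fold higher in H69M (limma adjusted p = 0.000126). DSC2, the desmocollin usually found with it, read 4.30, 4.12 and 4.29 in H69M, against 4.40, 4.40 and 4.33 in H69. These arrays did not overlap either, but the log2 fold change of -0.14, with a 95% interval of -0.30 to 0.020, did not pass (limma adjusted p = 0.14). DSG1, DSG3, DSG4, DSC1 and DSC3, which belong to stratified epithelium and hair, lay at means of 3.21 to 4.37 in H69M and 3.24 to 4.36 in H69 and were not called. Like DSC2, these genes lay below the 25th percentile of all genes (5.58) in both lines, so a difference could be missed. Of 5 measured keratinocyte and squamous markers, 0 rose and 1 fell, where 21.0% of all genes were higher and 23.2% lower.

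Desmosomal plaque genes, from a list outside the family, had 1 higher and 4 lower of 8. The all-gene shares were 21.0% higher and 23.2% lower. PKP2, a plakophilin of simple epithelia and heart, had a log2 fold change of -2.09 ± 0.10 (SE), with means of 5.85 in H69M and 7.94 in H69. The junction protein gene PERP had -1.44 ± 0.080, and DSP, desmoplakin itself, -0.92 ± 0.083. PKP4 fell by 0.46, and PKP1 rose by 0.24 with a limma adjusted p = 0.0416. DSG2 rose on the arrays on which PKP2, PERP and DSP fell.

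The delta-1 and delta-2 protocadherins each held genes that rose and genes that fell. Of 11 non-clustered genes, 6 rose, 3 fell and 2 did not pass, where 21.0% of all genes were higher and 23.2% lower. PCDH10, a delta-2 protocadherin of the nervous system that takes part in axon growth (probe set 8097449), read 9.58, 9.94 and 10.01 in H69M, against 5.76, 6.22 and 6.01 in H69. The lines stood far apart, with a 14.4-fold higher level in H69M (log2 fold change 3.85 ± 0.14, SE; limma adjusted p = 7.29e-07). PCDH7, a delta-1 protocadherin first described in brain and heart, read 7.32, 7.67 and 8.12 in H69M, against 5.77, 5.51 and 5.42 in H69, at 4.40-fold (limma adjusted p = 5.81e-05). Its H69M arrays spread more than those of most members (SD 0.40) but stayed above every H69 array. The H69 mean of PCDH7 (5.56) lay just under the 25th percentile of all genes (5.58).

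PCDH9, the delta-1 protocadherin that is abundant in brain, went the opposite way. It read 7.16, 6.99 and 6.89 in H69M, against 9.20, 9.01 and 9.11 in H69, a 4.26-fold lower level with a limma adjusted p = 1.12e-06. PCDH19, a delta-2 gene mutated in an epilepsy, read 6.47, 6.07 and 6.12 in H69M, against 7.30, 7.32 and 7.15 in H69. Its level was 2.05-fold lower in H69M, with no overlap (limma adjusted p = 0.000163). PCDH8, named for its part in the paraxial mesoderm in other vertebrates, fell by 0.53, and PCDH17 did not pass at 0.058.

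Smaller rises were found for PCDH18, PCDH20 and PCDH1. PCDH18 read 9.89, 10.03 and 9.67 in H69M, against 9.07, 9.19 and 9.04 in H69, a 1.69-fold difference without overlap. PCDH20 read 5.64, 5.35 and 5.81 in H69M, against 4.76, 5.15 and 4.73 in H69, at 1.65-fold. PCDH1, an adhesion protein of airway epithelium, read 6.53, 6.46 and 6.63 in H69M, against 6.14, 5.97 and 6.06 in H69, at 1.40-fold. PCDH12, an endothelial protocadherin, did not pass, at a mean of 5.00 in H69M and 5.11 in H69.

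Of the clustered protocadherins of chromosome 5, 16 of 18 beta genes rose and 0 fell, and 7 of 12 alpha genes fell and 0 rose. Over all genes, 21.0% were higher and 23.2% lower. Without the pseudogenes, 14 of 16 beta genes rose. Each variable exon of the protocadherin clusters has its own promoter. A short conserved element with the letters CGCT, which the insulator protein CTCF binds, is known from most of them. The sequences below show that element in called and uncalled genes, because its letters differ between the clusters. They come from RefSeq promoters (GRCh38.p14, 250 bases before to 50 after the start site), which were listed for 14 beta genes, 13 alpha genes and 20 gamma genes, and run 5′ to 3′ with the run of 9 bases in capitals. In the beta promoters the run is GGTGGCGCT.
PCDHB8 (chr5:141177768-141177816, plus strand): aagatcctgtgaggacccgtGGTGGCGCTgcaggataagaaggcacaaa
PCDHB16 (chr5:141182301-141182349, plus strand): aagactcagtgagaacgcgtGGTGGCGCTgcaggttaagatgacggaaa
PCDHB7 (chr5:141172557-141172605, plus strand): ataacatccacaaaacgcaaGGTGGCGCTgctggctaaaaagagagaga
PCDHB13 (chr5:141213856-141213904, plus strand): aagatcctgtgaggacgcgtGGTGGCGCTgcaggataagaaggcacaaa
PCDHB2 (chr5:141094535-141094583, plus strand): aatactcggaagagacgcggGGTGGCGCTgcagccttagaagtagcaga
PCDHB3 (chr5:141100384-141100432, plus strand): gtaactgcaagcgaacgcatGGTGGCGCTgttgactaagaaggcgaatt
PCDHB12 (chr5:141208634-141208682, plus strand): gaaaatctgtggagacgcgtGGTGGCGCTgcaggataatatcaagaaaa
In the alpha promoters the run is GATGTCGCT.
PCDHA12 (chr5:140875235-140875283, plus strand): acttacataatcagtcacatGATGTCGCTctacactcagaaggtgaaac
PCDHA8 (chr5:140841121-140841169, plus strand): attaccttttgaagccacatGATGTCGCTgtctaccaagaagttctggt
PCDHA5 (chr5:140821533-140821581, plus strand): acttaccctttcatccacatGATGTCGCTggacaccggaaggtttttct
PCDHA2 (chr5:140794772-140794820, plus strand): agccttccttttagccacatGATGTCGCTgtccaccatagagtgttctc
Both runs were picked because they recur in these promoters. GGTGGCGCT, searched on both strands, was in 13 of 14 beta promoters, in 0 alpha and 0 gamma promoters, and in 0.524% of all 27305 promoters. GATGTCGCT was in 9 of 13 alpha promoters, in 0 beta and 0 gamma promoters, and in 0.103% of all. The beta promoter without it was that of PCDHB1. PCDHB3 and PCDHB12 carry the beta run and were not called, and PCDHA1, PCDHA2 and PCDHA10 carry the alpha run and were not called, so neither run alone separated called from uncalled genes. A match is a description of the letters and not evidence of binding.

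The 18 measured beta genes had a median log2 fold change of 1.02, and 2 did not pass. At least 2-fold rises were found for 9. PCDHB8 (probe set 8108713) read 8.04, 8.57 and 8.24 in H69M, against 5.07, 4.92 and 4.34 in H69, an 11.3-fold higher level (log2 fold change 3.50 ± 0.20, SE; limma adjusted p = 5.81e-06). PCDHB16, which lies next to it in the cluster, read 7.83, 8.06 and 7.91 in H69M, against 5.00, 5.49 and 5.61 in H69, at 5.91-fold. Both were dim in H69 and clearly above that level on every H69M array. PCDHB7, PCDHB17P and PCDHB10, given below, also had H69 means (5.28, 5.53 and 5.26) under the 25th percentile of all genes (5.58).

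PCDHB7, on the other side of PCDHB8, read 6.96, 7.31 and 6.90 in H69M, against 5.39, 5.11 and 5.33 in H69, at 3.44-fold. The pseudogene PCDHB17P, the next on that side, read 7.34, 7.39 and 7.56 in H69M, against 5.44, 5.66 and 5.50 in H69, at 3.72-fold. These 4 neighbours had log2 fold changes of 1.78 to 3.50, the largest of the cluster. Further along, PCDHB13 read 7.65, 8.11 and 7.90 in H69M, against 6.27, 6.21 and 6.38 in H69, at 3.03-fold. PCDHB2, near the start of the cluster, read 8.96, 9.32 and 8.93 in H69M, against 7.41, 7.43 and 7.57 in H69, at 3.02-fold. The lines did not overlap for either gene.

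PCDHB10 read 6.64, 6.87 and 6.89 in H69M, against 5.34, 5.23 and 5.21 in H69, at 2.90-fold. PCDHB14 read 9.16, 9.53 and 9.33 in H69M, against 7.83, 7.92 and 7.93 in H69, at 2.73-fold. PCDHB9 read 8.59, 8.86 and 8.68 in H69M, against 7.38, 7.37 and 7.35 in H69, at 2.53-fold. The highest limma adjusted p among the 9 genes past 2-fold was 1.80e-05, for PCDHB13. Of the others, PCDHB5 (0.70), PCDHB15 (0.66), PCDHB11 (0.63), PCDHB4 (0.61), PCDHB18P (0.46), PCDHB6 (0.27) and PCDHB1 (0.26) rose by the log2 amounts given. Among these, PCDHB5, PCDHB6 and PCDHB1 were dim, with means below the 25th percentile of all genes in both lines. PCDHB12 (0.29) and PCDHB3 (-0.16) did not pass. The calls of PCDHB1 and PCDHB18P were lost when any 1 of several arrays was left out (limma adjusted p up to 0.0922 and 0.131), and that of PCDHB15 without H69 replicate 3 (0.0511).

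Beta genes resemble one another in sequence, and the promoter windows of PCDHB8 and PCDHB13 were identical at 48 of 49 positions, where the median over the 78 pairs of windows with the run was 30. These windows are promoter sequence, and the sequences of the probes were not compared. Whether the probe sets of PCDHB8 and PCDHB13 take signal from one another was not tested. The log2 fold changes of these genes were 3.50 for PCDHB8 and 1.60 for PCDHB13.

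**Figure D3:**
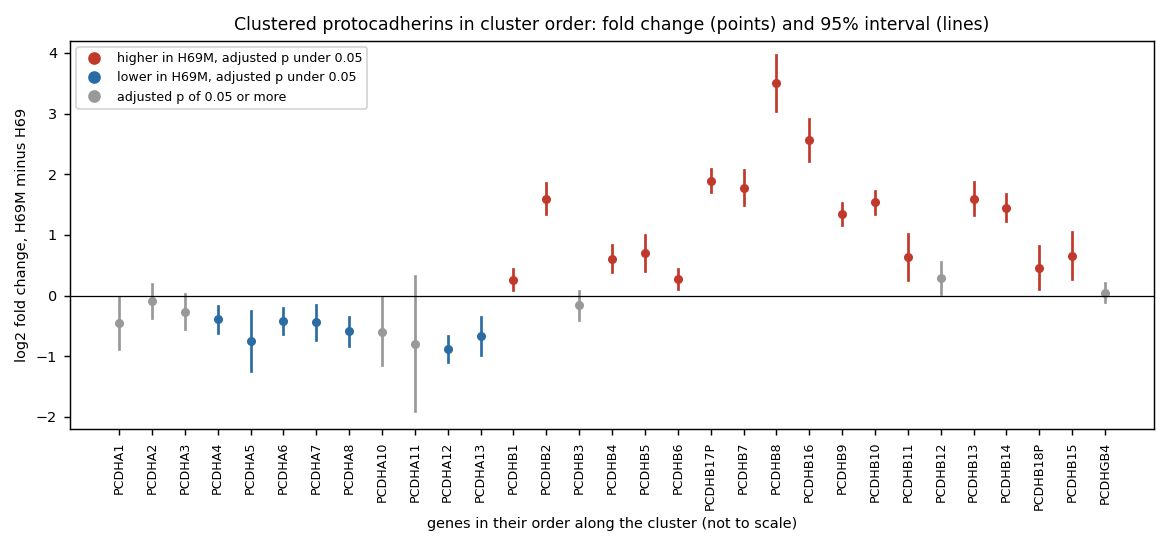
Log2 fold change of H69M minus H69 (points) with limma's 95% interval (lines) for the 31 measured clustered protocadherins in their order along chromosome 5, spaced evenly. Red marks genes higher in H69M, blue those lower and grey those that did not pass. All 12 alpha genes lie below 0, 17 of 18 beta genes lie above it, and PCDHB8 is highest at 3.50.

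Of 12 measured alpha genes, 0 rose, 7 fell and 5 did not pass, and the median log2 fold change was -0.52. The call of PCDHA7 (-0.44) was lost without H69 replicate 1 (limma adjusted p = 0.0635). PCDHA12 read 5.75, 5.56 and 5.69 in H69M, against 6.52, 6.41 and 6.71 in H69, a 1.84-fold lower level without overlap (limma adjusted p = 0.00014). PCDHA13 read 7.45, 7.12 and 7.11 in H69M, against 7.82, 7.72 and 8.14 in H69, at 1.59-fold lower. PCDHA5 read 5.88, 5.65 and 6.44 in H69M, against 6.90, 6.41 and 6.93 in H69. Its arrays overlapped, and its call (limma adjusted p = 0.0223) was lost without H69M replicate 1 (0.0653), H69M replicate 2 (0.0705), H69 replicate 1 (0.0729) or H69 replicate 3 (0.0794). PCDHA11 did not pass, with 2.18, 3.88 and 4.32 in H69M and 4.37, 4.40 and 3.98 in H69, and its log2 fold change of -0.79 was -0.15 without H69M replicate 1.

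A further probe set names 15 alpha genes together, which share their last exons. It read 6.84, 6.71 and 6.76 in H69M, against 7.30, 7.20 and 7.34 in H69, with no overlap. The log2 fold change was -0.51 ± 0.068 (SE), with a limma adjusted p = 0.00178 over all probe sets. This probe set was not given to any 1 gene. The only measured gamma gene, PCDHGB4, stood at 6.50 ± 0.079 in H69M and 6.45 ± 0.065 in H69 (SD, n = 3 each) and did not pass. CDH4, CDH13 and the other gamma genes were not analysed here.

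Measured genes outside the family on either side of the clusters also differed in direction. For comparison, 21.0% of all genes were higher and 23.2% lower. Of the 12 before the alpha cluster, 0 were higher and 4 lower in H69M, with a median log2 fold change of -0.19 and 1 past 2-fold. Inside the stretch, SLC25A2 and TAF7 were the 2 measured genes of other families, with 0 higher and 1 lower and values of -0.23 and 0.0068. Of the 12 after the gamma cluster, 8 were higher and 0 lower, with a median of 0.30, 2 past 2-fold and a highest value of 3.21.

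Catenins and other partners of the cadherin tail had 4 higher and 3 lower of 9 measured genes, where 44.2% of all genes were called. CTNND2, the delta-catenin of neurons, fell by 2.78 ± 0.15 (log2, SE), with means of 6.75 in H69M and 9.53 in H69. CTNNA2, the neuronal alpha-catenin, fell by 0.81 and ARVCF by 0.34. VCL, vinculin, which ties junctions and focal adhesions to actin, rose by 2.29 ± 0.072. The general catenins changed little, with rises of 0.38 for JUP (plakoglobin), 0.35 for CTNNB1 (beta-catenin) and 0.33 for CTNNA1.

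Other members of the cadherin superfamily, outside the naming rule, had 5 higher and 7 lower of 17 measured genes. The share called over all genes was 44.2%. CLSTN2, a calsyntenin of synapses, fell by 2.05 ± 0.16 (log2, SE), and CDHR3 fell by 1.32 ± 0.080. FAT4, a very large cadherin, rose by 1.92 ± 0.13, and its ligand DCHS1 by 0.82 ± 0.076. CELSR1, a cadherin of planar cell polarity, rose by 1.12 ± 0.059. Among proteases that mature or shed cadherins, 5 of 8 were higher and 2 lower. PCSK5 rose by 1.82 and FURIN by 0.80, which belong to the convertases that remove propeptides, NCSTN of gamma-secretase by 0.49, and PCSK6 fell by 0.61.

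**Figure D4:**
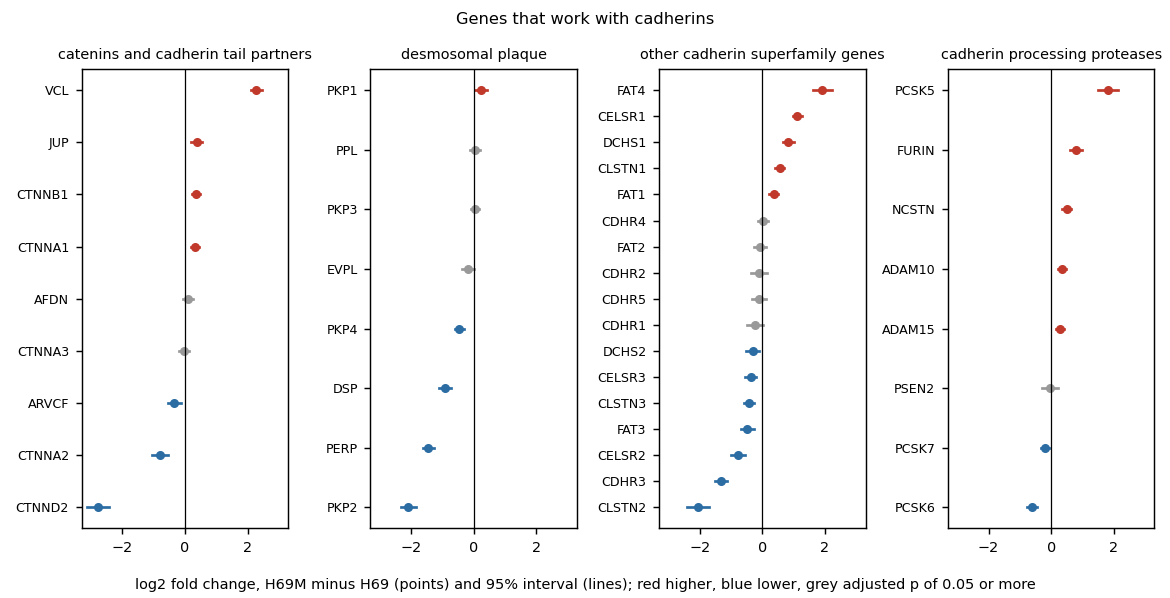
Log2 fold change of H69M minus H69 (points) with limma's 95% interval (lines) for 4 lists of genes that work with or resemble cadherins. VCL at 2.29 and FAT4 at 1.92 are the highest shown, and CTNND2 at -2.78 and PKP2 at -2.09 the lowest.

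Of 12 transcription factor genes known to act on E-cadherin, 5 rose and 3 fell, where 44.2% of all genes were called. The repressor genes ZEB2 (2.68 ± 0.16, log2, SE) and ZEB1 (2.05 ± 0.067) rose, as did TCF3 (0.49), TWIST1 (0.36) and TWIST2 (0.35), while TCF4, a repressor too, fell by 0.55. ELF3 fell by 1.55 and OVOL2 by 0.87. SNAI1 (0.078), SNAI2 (0.22), GRHL2 (0.063) and OVOL1 (0.0055) did not pass. On the same arrays CDH1 had the log2 fold change of -0.070 given above.

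The spread between arrays was larger in H69M than in H69, with a median SD over the members of 0.16 against 0.092. Of the 48 called members, H69M replicate 1 was the H69M array nearest to the H69 mean in 28, replicate 2 in 8 and replicate 3 in 12. Without H69M replicate 1 the counts were 27 higher and 21 lower.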

How the data were processed

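Total RNA of H69M and H69 was measured on Affymetrix whole-transcript arrays, 3 of each line. The authors deposited 1 log2 value per probe set and array. RMA and limma are the tools in the submitters' processing notes, which give no version. RMA as usually run corrects background, normalizes arrays to each other and summarises probes. Neither the RMA software nor a build is named: both were not given in the sources used here. The table held 32321 probe sets, of which 19158 had 1 gene symbol and 1388 several in the platform annotation. Genes took their probe set with the highest mean. Of the members, 1 had more than 1 probe set, and 70 of 70 matched RefSeq (GRCh38.p14) with the same symbol. RefSeq was used for chromosome, gene order and promoters. From 3 probe sets naming several genes with a member among them, 2 are not reported here.

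H69M was compared with H69 in limma 3.58.1 (R 4.3.3, group as the only term, two-sided) over 18404 genes, with Benjamini-Hochberg adjustment and a threshold of 0.05. Members and lists were chosen with earlier results of these data known. Values per array are given for members called with a log2 fold change of at least 1 and for fixed genes, and for up to 3 further called members per subfamily. CDH6 and PCDHA11 were added after their values were seen, as were the neighbouring genes and the promoter runs. Alternatives were the replicate block, 2 further normalizations, 2 level filters, eBayes trend and robust, array weights, 2 ways of handling probe sets, and the omission of each array in turn. Deviations of same-numbered arrays correlated at 0.0072 to 0.021, so the numbers were not treated as pairs. The number of arrays limits the precision, with a median standard error of 0.097 over members. The code was tested on simulated data. Python 3.11.15 with pandas 2.3.3 and matplotlib 3.10.9 was used for summaries and plots.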

Additional observations from a re-analysis of the deposited data

How the results depend on the processing

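Leaving out genes below the median level kept 21 of the 70 members and gave 9 higher (8 of them at least 2-fold) and 10 lower (3 at least 2-fold), and 483 higher and 323 lower genes past 2-fold in all, since fewer genes were tested. Under the other alternatives each of these counts stayed within 1.5 times of its main value. With the replicate block, 27 members were higher and 21 lower, the calls of PCDHB1 (limma adjusted p = 0.0559) and PCDHB18P (0.0639) were lost and those of PCDHA10 (0.0179) and PCDHB12 (0.0258) gained. The numbers did not pair the arrays. With probe sets of several symbols used, 28 were higher and 30 lower of 75, in part because the shared alpha probe set then stands for several genes. At least 2-fold lower members were 7 in this setting, against 5 in the main run. The shared alpha probe set, at a log2 fold change of -0.51, does not account for that difference. With 1 array left out, 26 to 28 members were higher and 18 to 22 lower. Of the 31 members named by rule, PCDHA5 alone lost its call under any alternative run.

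PCDHB12 passed with arrays centred on their medians (limma adjusted p = 0.0486) and with quantile normalization applied again (0.0448). PCDHB1 lost its call without each of H69M replicates 1 and 2 and H69 replicates 1 and 2 (limma adjusted p = 0.0699 to 0.0922), PCDHB18P without each of H69M replicates 2 and 3 and H69 replicate 2 (0.0873 to 0.131), PCDHA7 without H69 replicate 1 (0.0635) and PCDHB15 without H69 replicate 3 (0.0511). Calls were gained with 1 array left out for CDH9, PCDHA1, PCDHA3, PCDHA10 and PCDHB3, all lower in H69M, and for PCDHB12, which was higher. PCDHB3 was thus a beta gene called lower without H69M replicate 2, at a log2 fold change of -0.27 (limma adjusted p = 0.0314). Signal over background is not given by these values, so dim members such as the desmocollins limit what can be said of their change.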
